A study of Mus musculus with 8 samples.

Results

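The 3 CIDE genes of the mouse, Cidea, Cideb and Cidec, encode proteins of the lipid droplet surface, and their loci differed widely in the number and score of ATAC-seq summits in a peak list from brown adipose tissue (BAT). Of the 32173 summits in that list, 40 lay in the body of a CIDE gene or within 50 kb of the transcription start site (TSS) of one of its curated RefSeq mRNAs, which was the rule used to choose them. Cidea held 21 of the 40, Cidec held 12 and Cideb held 7, and no summit was counted at more than one of the genes. Cidea (gene ID 12683) runs along the plus strand of mm10 at chr18:67343564-67367794, Cideb (gene ID 12684) along the minus strand at chr14:55754052-55758424, and Cidec (gene ID 14311) along the minus strand at chr6:113424634-113435760. Only 13 of the 40 summits lay inside a CIDE gene, and for 17 of them the nearest mRNA TSS was that of the CIDE gene itself.

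The study asked how loss of Dot1l, the histone H3K79 methyltransferase, changes chromatin access in BAT during cold exposure. Its ATAC-seq used nuclei from the BAT of 2 mice that were WT and 2 that were Dot1L-BKO, all chow-fed, 12 weeks old and kept at 4°C for 4 hr, with the nuclei of each mouse handled apart. WT animals were littermates with a floxed Dot1l gene and no deletion, and Dot1L-BKO animals carried the same floxed gene together with a Cre driven by the Ucp1 promoter. That Cre acts in Ucp1+ cells, whereas the nuclei came from whole BAT, so that other cell types of the tissue kept Dot1l. The deposited peak list gives 1 position and 1 score for each peak, was made from the 4 libraries together with WT named against Dot1L-BKO, and has no value for a single library. Which libraries served as the control in peak calling is not known here, so no comparison of the genotypes was possible, no replicate error can be given, the depth is unknown, and every value below is a description of that one list. If the Dot1L-BKO libraries were the control, a score would measure enrichment of WT over Dot1L-BKO reads and not how open a site is, so counts and scores are given here as properties of the list and not as amounts of open chromatin. The score is the −log10 of the q-value of the peak, and its median over the list was 5.0, with quartiles of 3.05 and 9.39.

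CIDE proteins sit at the contact between lipid droplets, where they pass neutral lipid from the smaller droplet to the larger, and they also lipidate lipoproteins in cells that secrete them. Cidea is a hallmark gene of brown adipocytes, Cidec (also called Fsp27) is abundant in white and brown fat and drives the growth of large droplets, and Cideb works mainly in hepatocytes and enterocytes on the loading of triglyceride into lipoproteins. Open chromatin at a promoter or at a distal element marks DNA that the Tn5 transposase of the ATAC-seq assay can reach, and it does not by itself give the level of transcription.

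Cidec is transcribed from 2 curated TSSs that lie 996 bp apart, and in this list only the inner one had a summit just upstream of it. The 250 bases before each Cidec TSS and before the single Cideb TSS are shown to set the 250 bases that hold a summit beside those that hold none. The same summit lies 832 bp downstream of the outer TSS, so that by the window of 1 kb used below it counts for both Cidec TSSs. All 3 are from RefSeq (GRCm38, the build named mm10), read 5′ to 3′ on the minus strand and end 1 base before the TSS. Capitals mark the motif matches named after the sequences. The inner Cidec promoter spans chr6:113434765-113435014, the outer one chr6:113435761-113436010 and the Cideb promoter chr14:55758425-55758674.
Cidec inner promoter: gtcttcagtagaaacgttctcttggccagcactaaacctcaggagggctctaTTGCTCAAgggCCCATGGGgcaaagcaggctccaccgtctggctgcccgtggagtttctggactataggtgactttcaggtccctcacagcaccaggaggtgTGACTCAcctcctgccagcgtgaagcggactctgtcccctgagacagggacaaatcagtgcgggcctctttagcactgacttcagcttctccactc
Cidec outer promoter: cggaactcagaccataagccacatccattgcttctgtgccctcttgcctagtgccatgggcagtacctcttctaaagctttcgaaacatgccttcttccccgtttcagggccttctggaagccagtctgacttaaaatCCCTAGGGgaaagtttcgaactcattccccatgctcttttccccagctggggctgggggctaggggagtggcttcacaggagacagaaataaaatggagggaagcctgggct
Cideb promoter: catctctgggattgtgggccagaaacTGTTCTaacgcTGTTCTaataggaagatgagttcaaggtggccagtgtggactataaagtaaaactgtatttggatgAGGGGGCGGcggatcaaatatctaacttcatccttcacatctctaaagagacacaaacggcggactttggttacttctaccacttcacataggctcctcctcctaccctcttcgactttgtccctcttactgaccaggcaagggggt
In the inner Cidec promoter the summit fell on base 87, between an EBF-type match (CCCATGGG, bases 64 to 71) and an AP-1-type match (TGACTCA, bases 155 to 161). A C/EBP-type match (TTGCTCAA) stood at bases 53 to 60. The nearest base of the EBF-type match was 16 bp from the summit, that of the C/EBP-type match 27 bp and that of the AP-1-type match 68 bp. The outer Cidec promoter held 1 match, an EBF-type CCCTAGGG at bases 139 to 146. In the Cideb promoter, GRE half-sites (TGTTCT) were at bases 27 to 32 and 38 to 43, and a CTCF core (AGGGGGC, bases 104 to 110) overlapped an SP/KLF box (GGGCGG, bases 107 to 112). Such short patterns are common: over 32851 RefSeq promoters of 250 bases, searched on both strands, 11.8% held the EBF pattern CCCNNGGG, 9.56% the C/EBP pattern TTGCNNAA, 6.75% the AP-1 pattern TGANTCA, 16.1% the GRE half-site, 9.43% the CTCF core and 32.7% the SP/KLF box. A match describes the letters and not a bound factor. The GC content was 56.8% for the inner Cidec promoter, 52.8% for the outer one and 47.2% for the Cideb promoter.

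**Figure D1:**
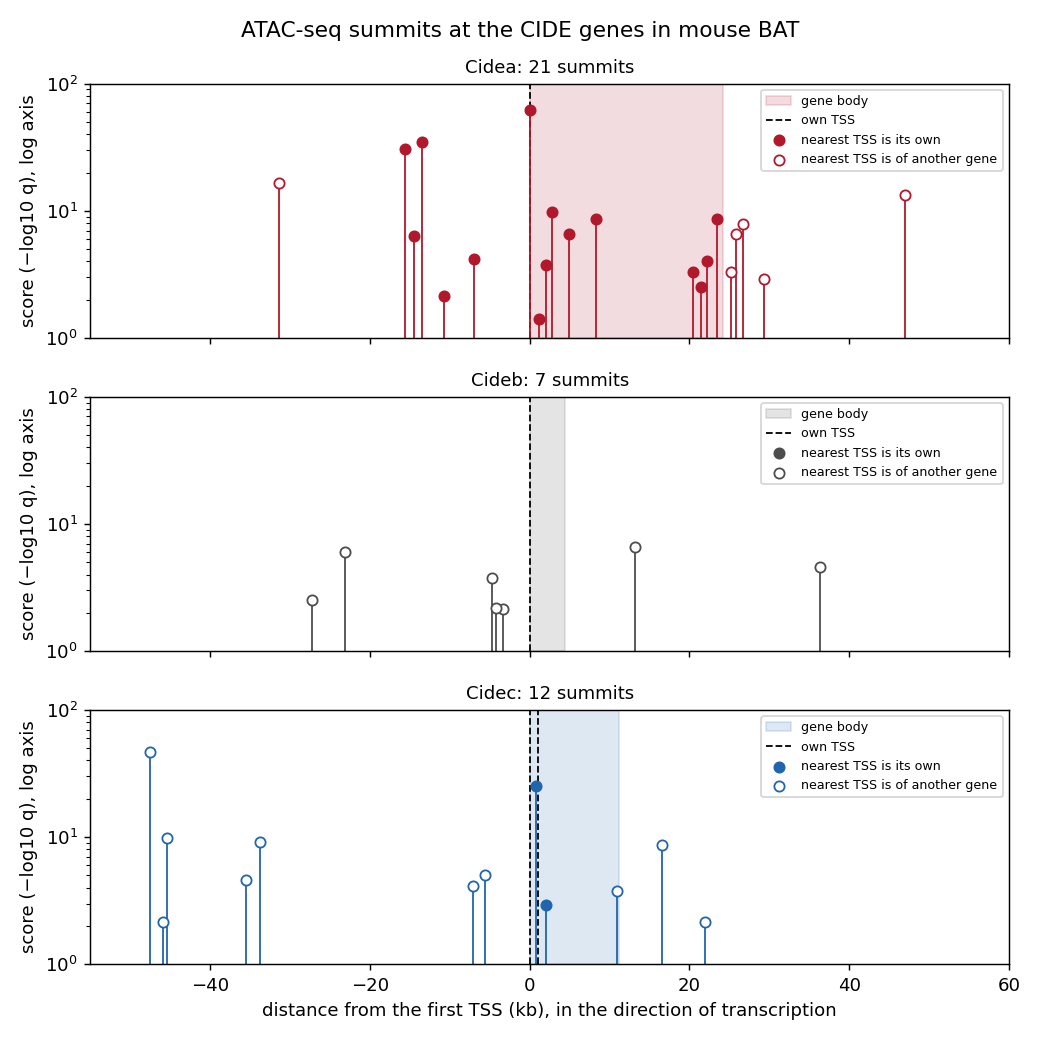
Summits at the 3 CIDE genes, by distance from the first TSS in kb (x axis, in the direction of transcription) and score (y axis, −log10 q, log axis). Filled circles have the gene's own TSS nearest and open circles that of another gene, the shaded span is the gene body and dashed lines mark the gene's own TSSs. Cidea has 15 filled circles of 21, Cidec 2 of 12 and Cideb 0 of 7.

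Among the CIDE genes, Cidea had the most summits inside the gene and the highest promoter score. A summit of score 61.5 lay 65 bp downstream of its TSS in the non-coding part of exon 1, and it ranked 231 among the 10375 summits within 1 kb of an mRNA TSS, or in the top 2.23%. Of the 9485 genes with such a summit, 278 reached at least this score. Upstream, 5 summits formed a group that began 7024 bp and ended 15607 bp before the TSS. The outer members of this group included the highest-scoring distal summits of any CIDE gene, 1 of score 35.0 at 13521 bp and 1 of score 30.9 at 15607 bp. Among the 21798 summits more than 1 kb from every mRNA TSS they ranked 327 and 414, which is the top 1.5% and the top 1.9%. The other 3 were lower, with scores of 6.35 at 14461 bp, 2.15 at 10725 bp and 4.16 at 7024 bp, so that a summit of lower score separated the 2 highest and the scores nearer the gene were lower.

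Inside Cidea the summits fell into separate groups. The gene body held 10 summits with a median score of 5.29, close to the 5.0 of the list, and the only one of them with a score of at least 10 was the promoter summit. The first group of 5 lay in intron 1, between 1100 and 8265 bp downstream of the TSS, with scores of 1.41, 3.75, 9.79, 6.53 and 8.65 from the TSS outward. After a stretch of 12182 bp without a summit came 3 in intron 3, at 20447, 21433 and 22161 bp, with scores of 3.32, 2.53 and 4.04. The last, in intron 4 at 23414 bp, had a score of 8.65. Among summits more than 1 kb from every mRNA TSS, the score of 9.79 was in the top 14.5%, that of 8.65 in the top 17.0% and that of 6.53 in the top 25.8%, while the other 5 outside the promoter were in the lower ranks, from the top 53.5% to the top 99.4%. Summits went on past the end of the gene, with scores of 3.32, 6.53, 7.91 and 2.92 between 25184 and 29288 bp from the TSS, and for these Tubb6, a tubulin gene, had the nearer TSS.

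The 2 remaining summits counted at Cidea were tied to other genes. One of score 13.4 lay 180 bp upstream of the Tubb6 TSS, and one of score 16.7 lay in intron 5 of Impa2, an inositol monophosphatase gene. Over all 21 the score ran from 1.41 to 61.5 with a median of 6.53, and 5 had a score of at least 10. The upper quartile of the whole list was 9.39, so 5 of 21 is near the share of the list. A long non-coding RNA, B430212C06Rik, is read from the opposite strand and starts 539 bp inside Cidea. Its gene held 6 of the Cidea summits, namely the promoter summit, 474 bp downstream of the lncRNA's own TSS, and the 5 of the upstream group, all in its intron 1. ATAC-seq reads carry no strand, so the promoter summit of Cidea and that of B430212C06Rik cannot be told apart.

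Cidea also carried many summits for its length. In the whole annotation, 45.2% of 21000 genes held at least 1 promoter summit (a summit no more than 1 kb from a TSS), 43.2% had one in the gene body, and 72.6% had one in the body or within 50 kb of a TSS, so that the presence of a summit alone sets no gene apart. By count, the 21 summits at Cidea exceeded those of 97.1% of genes (606 genes had at least as many, and the median gene had 2), and the 10 in its body exceeded those of 99.0%. Genes with many body summits are mostly long, and the 200 others with at least 10 had a median length of 82116.5 bp against 24231 bp for Cidea. Among the 4684 genes no more than 1.5 times longer or shorter than Cidea, 48.2% had any body summit, 36 had at least 10 and 37 (0.79%) had at least its 4.13 per 10 kb. The 5 densest of these were Nr4a1, an immediate early nuclear receptor gene, with 14 body summits, Fasn, the fatty acid synthase gene, with 12, Kdm6b, an H3K27 demethylase gene, with 13, and Zbtb7a and Tns2 with 10 each.

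When each summit was given only to the gene with the nearest TSS, Cidea had 14 summits more than 1 kb from its TSS, and 135 other genes had at least as many. The upper quartile over all genes was 1. Of the 7902 genes with any such distal summit, 289 others had one that scored at least as high as the 35.0 of Cidea, and 50 others had, as Cidea did, at least 2 with a score of 30 or more. A gene with few neighbours is given more summits in this way. The 50 kb window around Cidea holds the curated mRNA TSS of only 1 other gene, Tubb6.

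**Figure D2:**
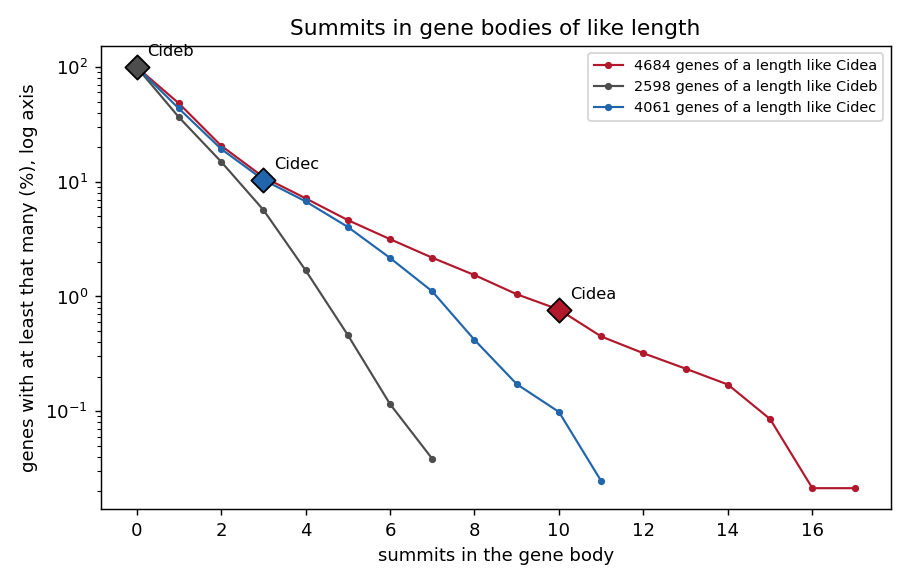
Share of genes (y axis, percent, log axis) with at least a given number of summits in the gene body (x axis), for the genes of a length like that of each CIDE gene. Diamonds place the CIDE genes at their own counts of 10 (Cidea), 3 (Cidec) and 0 (Cideb). Cidea sits far down its curve, where 36 of 4684 genes remain.

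Cidec had a promoter summit of high score and only 1 other summit for which its own TSS was the nearest. The summit had a score of 25.4 and lay 164 bp upstream of the inner TSS, which is 832 bp downstream of the outer TSS and within intron 1 of the mRNAs that start there. It ranked 1502 of 10375 among summits near a TSS, or in the top 14.5%, and 1812 of the 9485 genes with a promoter summit reached at least its score. The mRNA from the inner TSS encodes 249 residues in the annotation and has 5 coding bases in its first exon, while those from the outer TSS encode 239. The same summit lay 423 bp downstream of the TSS of Gm52871, a predicted lncRNA on the plus strand that overlaps Cidec by 1256 bp and starts 259 bp from the inner TSS, and here too the promoters cannot be told apart without strand.

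The other 2 summits in the body of Cidec were low. One of score 2.92 lay in intron 2 of the inner transcript, 1009 bp downstream of its TSS, and one of score 3.75 lay in the non-coding end of the last exon. Cidec therefore had 2.70 summits per 10 kb, and among 4061 genes of like length 422 had at least 3 and 319 (7.86%) were at least as dense. The densest of those were Mafg with 9 body summits, Mknk2 with 10, Slc25a22 and Slc48a1 with 7 each and Scd1, a stearoyl-CoA desaturase gene, with 11.

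The 9 summits around Cidec all had the TSS of another gene nearest. The highest score at the locus, 46.4, belonged to a summit 18 bp upstream of Creld1, 47578 bp before the outer Cidec TSS, and 2 more summits with scores of 9.79 and 2.15 lay within 2193 bp upstream of Creld1. Near Il17rc, an interleukin 17 receptor gene, summits of score 4.56 and 9.21 lay 142 and 1927 bp upstream of the TSS. At Jagn1 the scores were 5.07, 1141 bp upstream, and 4.16, 309 bp downstream. On the other side of Cidec, a summit of score 8.65 lay 128 bp downstream of the TSS of Rpusd3, and one of score 2.15 lay in intron 12 of Ttll3 with Rpusd3 as the gene of the nearest TSS. Within 50 kb of Cidec lay the curated mRNA TSSs of 6 other genes. The count of 12 summits at this locus, above that of 90.2% of genes, was made up mostly of summits nearest to such TSSs.

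Cideb, the hepatic and intestinal member, had no summit in its body of 4373 bp, none within 1 kb of its TSS, and none for which its TSS was the nearest. An empty body was usual at this length, since 36.5% of the 2598 genes of like length held a body summit and 1649 held none. The 7 summits within 50 kb had scores from 2.15 to 6.53 with a median of 3.73, and none reached 10. Most summits of the whole list do not reach 10 either, since its upper quartile was 9.39. Their highest score was above that of only 19.4% of the 15242 genes with a summit at their locus, although their number was above that of 80.5% of all genes. The window around Cideb is crowded, with the curated mRNA TSSs of 8 other genes. The closest summit, of score 2.15, lay 3294 bp upstream of Cideb and 290 bp downstream of the TSS of Ltb4r2, a leukotriene B4 receptor gene, and 2 more of score 2.18 and 3.73 lay farther along Ltb4r2. The rest lay 75 bp downstream of Rabggta (score 4.61), 407 bp downstream of Dhrs1 (6.53), in exon 4 of Adcy4 (6.02), and in intron 9 of Ripk3, 1612 bp upstream of Adcy4 (2.53). A list of peaks that passed a cutoff does not show that chromatin at Cideb is closed, only that no peak there passed it.

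Most other lipid droplet genes had a promoter summit in the list. Of 30 genes of droplet coat, lipolysis and triglyceride synthesis, 26 (86.7%, 95% Wilson interval 70.3 to 94.7) had a promoter summit, against 45.2% of all genes, and 22 (73.3%) had one with a score of at least 10, against 23.5%. Their top promoter scores ran from 5.56 to 90.5 with a median of 24.6, against a median of 10.7 over all genes with a promoter summit. Only 3 exceeded the 61.5 of Cidea, namely Acsl1, an acyl-CoA synthetase gene, at 90.5, Lipe, the hormone-sensitive lipase gene, at 84.8, and Dgat1, a triglyceride synthesis gene, at 65.4. Rab8a, a GTPase gene tied to droplet fusion, was just below it at 60.4. The promoter score of Cidec, 25.4, lay near the median of 24.6 of these lipid droplet genes.

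The coat proteins and lipases in the list covered a wide range. Among the perilipins, the scores were 36.7 for Plin2, 33.3 for Plin3, 29.3 for Plin5 and 23.1 for Plin1, while Plin4 had no promoter summit and its nearest summit lay outside the window. Pnpla2, the adipose triglyceride lipase gene, reached 47.3, its co-activator Abhd5 19.5, its inhibitors Hilpda 21.1 and G0s2 6.53, and Mgll, the monoglyceride lipase gene, 5.56. Fitm1, Hsd17b13 and Clstn3 had none either, and Cideb was like these 4 in that respect. Of the 4 genes with the lowest promoter scores, Mgll held 33 body summits and Lpin1, with a score of 8.65, held 30, and these are the longest genes of the list, while G0s2 and Hsd17b11 (5.56) held 1 each. Acsl1 held 35 and Plin2 held 11, and these 4 were the members of the list with at least as many body summits as Cidea. All 4 are longer than Cidea.

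**Figure D3:**
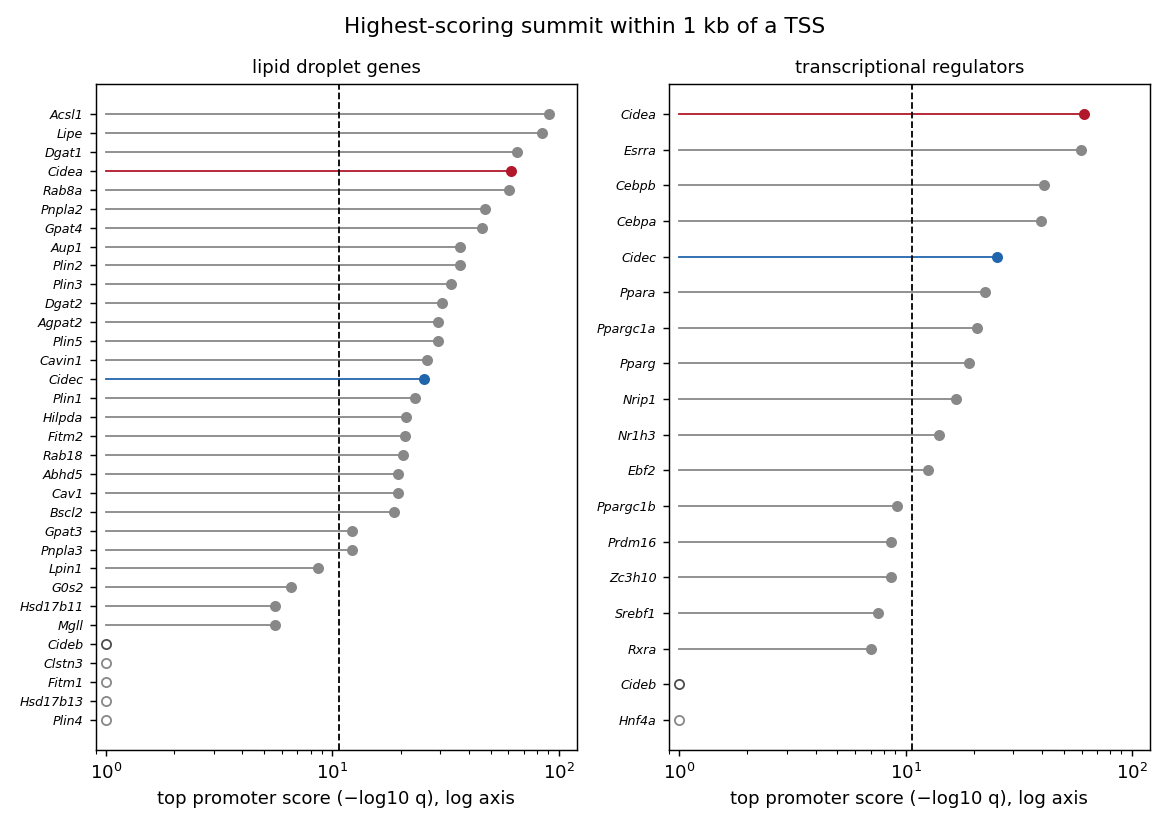
Highest score (x axis, −log10 q, log axis) of a summit within 1 kb of a TSS for the 30 lipid droplet genes (left) and 15 transcriptional regulators (right), with Cidea in red, Cidec in blue and Cideb in dark grey in both. Open circles drawn at the left edge are genes without a promoter summit, and the dashed line is the median over all genes with one, 10.7. Cidea stands below 3 of the droplet genes and above each of the regulators.

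Genes of factors known to act on CIDE or brown fat genes nearly all had a promoter summit. It was present at 14 of 15 (93.3%, 95% Wilson interval 70.2 to 98.8), against 45.2% of all genes, and at 9 (60%) with a score of at least 10, against 23.5%. The highest were Esrra, the ERRα gene, at 59.5, Cebpb at 41.0 and Cebpa at 39.6. Ppara had 22.4, Ppargc1a 20.8, Pparg 19.1, Nrip1, a corepressor gene, 16.7, Nr1h3 14.0 and Ebf2 12.5. Lower scores were found at Ppargc1b (9.21), Prdm16 (8.65), Zc3h10 (8.65), Srebf1 (7.58) and Rxra (7.05). Hnf4a, a hepatocyte and enterocyte factor, was the only one without a promoter summit.

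Marker genes of several cell types were counted in the same way. Since the control of the peak calling is not known, a contrast of WT with Dot1L-BKO libraries could also shape these counts, and they are no check of the labelled tissue. All 10 genes of the adipocyte list had a promoter summit. Of these, 6 (Ucp1, Ppargc1a, Dio2, Elovl3, Cox7a1 and Cox8b) are used more in brown than in white fat, and 4 (Adipoq, Fabp4, Plin1 and Pparg) are shared by both, so that the list as a whole does not separate brown from white fat. Promoter summits were found at 2 of 10 hepatocyte markers and 0 of 8 enterocyte markers, against 45.2% of all genes. The shares were 2 of 8 for skeletal muscle, 1 of 8 for leukocytes and 2 of 8 for endothelial cells. Plin1, Pparg and Ppargc1a are adipocyte genes that the other lists also hold, and Hnf4a is both a hepatocyte marker and a regulator. The part of other cell types in the CIDE summits was not tested.

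**Figure D4:**
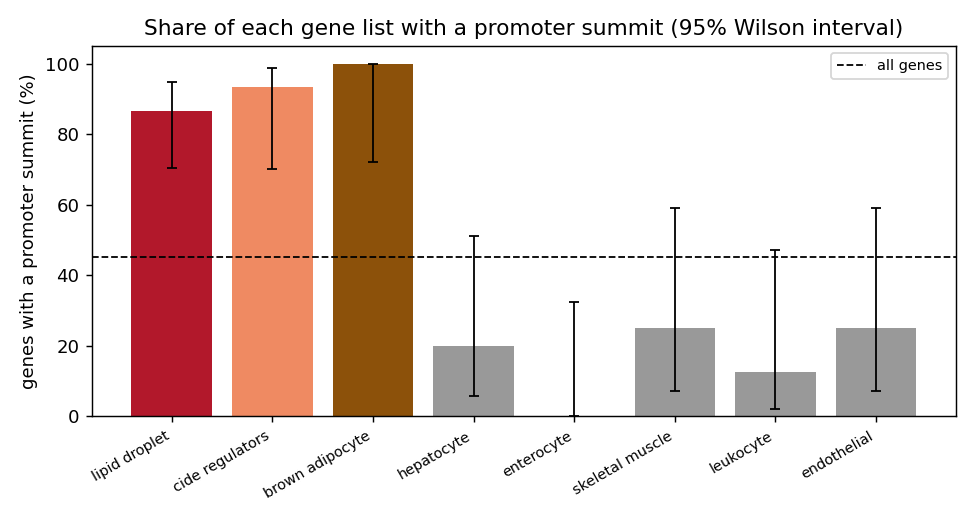
Share of the genes in each list (bars, percent) with a summit within 1 kb of a TSS, with 95% Wilson intervals that cover counting error only. The dashed line is the share over all genes, 45.2%. The bar named brown adipocyte holds 6 genes used more in brown fat and 4 general adipocyte genes. The lipid droplet, regulator and adipocyte lists stand above the line and the other 5 bars below it, most of these 5 with intervals that cross it.

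Letters near the CIDE summits were searched for 16 short motifs within 100 bp on both strands. The AP-1 pattern TGANTCA was found at 7 of 40 CIDE summits (17.5%, 95% Wilson interval 8.75 to 31.9), against 6.4% of all summits, and they were spread over Cidea (3), Cideb (2) and Cidec (2). Of these 7 only the Cidec promoter summit had a score of at least 10. This motif was singled out after its value was seen, the summits lie near one another, and the intervals cover counting error only. The nuclear receptor half-site AGGTCA stood at 7 (17.5% against 15.2%), a share near that of the list. The longer ERR form NCAAGGTCA stood at 2 (5.0% against 1.64%), both in the group upstream of Cidea, at 13521 and 7024 bp, and the first of them is the distal summit of the gene with the highest score. Within 50 bp it stood at 0 CIDE summits, against 0.842% of all.

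Other motifs were near or below the shares of the list within 100 bp, and for some of them the side changed with the window. The C/EBP pattern was near 3 summits (7.5% against 10.9%), the EBF pattern near 4 (10% against 15.7%), 3 of them at Cidec, and the NFI half-site TTGGCA near 2 (5.0% against 10.9%), both upstream of Cidea. NF-Y and SP/KLF boxes, which are common in promoters, were near 6 (15% against 24.9%) and 5 (12.5% against 20.6%). The GRE half-site was near 5 (12.5% against 11.0%) and the CRE half-site TGACGT near 2 (5.0% against 5.06%), both of them inside Cidea. ETS motifs (CCGGAA) were near 2 (5.0% against 9.57%) and the E-box CACGTG near 1 (2.5% against 4.68%). Neither form of the DR1 element bound by PPAR and RXR matched near any CIDE summit, nor did the CTCF core or the NFI palindrome. Over all summits the shares were 0.087% for the strict DR1, 0.55% for the loose one, 0.0528% for the NFI palindrome and 5.5% for the CTCF core, and among 40 summits shares this low leave few or no matches. Within 250 bp the loose DR1 matched at 1 CIDE summit and the CTCF core at 2. No motif of the 16 matched within 100 bp of the Cidea promoter summit. The median GC content of these windows of 201 bp was 53.7% at the CIDE summits. It was 56.2% over all summits and 54.2% over those more than 1 kb from a TSS. Of the 40 windows, 4 (10%) were mostly repeat sequence, all of them at Cidea. The share was 9.98% over all summits and 14.5% over those more than 1 kb from a TSS.

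**Figure D5:**
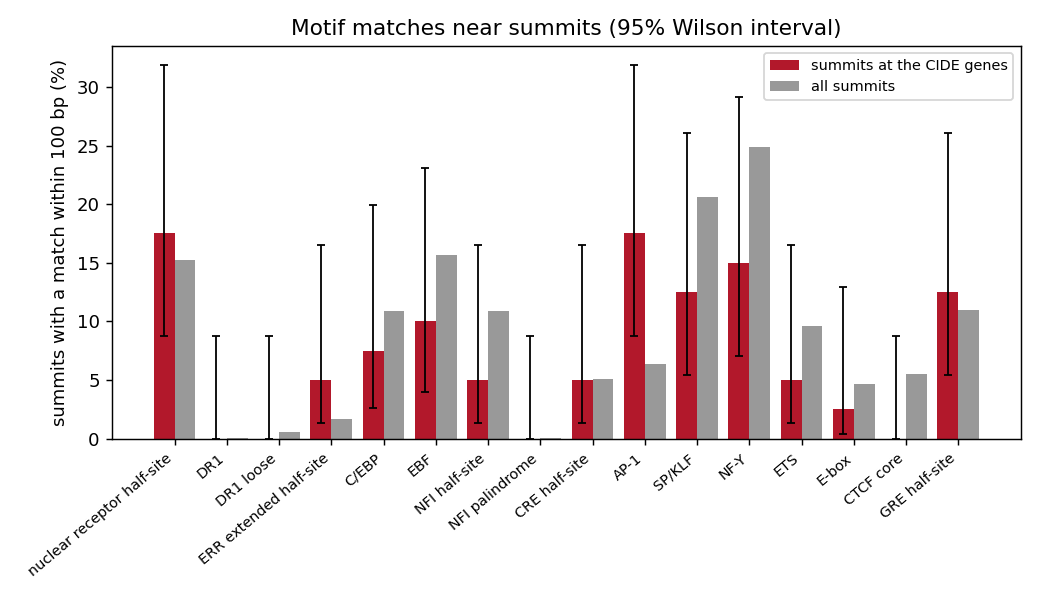
Share of summits (y axis, percent) with a match to each of 16 motifs (x axis) within 100 bp, for the 40 summits at the CIDE genes (red, with 95% Wilson intervals that cover counting error only) and for all 32173 summits (grey). The red bar exceeds the grey bar most at AP-1, 17.5% against 6.4%.

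Ranks by score are coarse in this list. It holds only 2606 distinct scores, 95.3% of summits share theirs with another, and so do all 40 at the CIDE genes. The score 8.65, found in intron 1 and intron 4 of Cidea and beside Rpusd3, is that of 717 summits in all. The score 61.5 of the Cidea promoter is that of 8, itself included.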

How the data were processed

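The authors prepared ATAC-seq libraries from the BAT of 2 WT mice and of 2 Dot1L-BKO mice. The submitters' processing notes name CASAVA, bcl2fastq 2.2, cutadapt 1.2.1, BWA and MACS2 2.1.1 and the build mm10, and the study's methods state that peaks had to pass q of 0.05 and enrichment of 2.0-fold. The deposited file, as the authors left it, holds 1 summit per peak with its score, the −log10 of the MACS2 q-value. The methods name the ATAC mode of MACS2. Whether that shifted reads for the transposase and how repeats were treated is not given in the sources used here, and a weak or repeat-borne peak can depend on both. With 1 list from all 4 libraries there is neither depth nor replicate error, and the genotypes could not be tested. RNA-seq libraries were not analysed here.

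Summit positions were set against the RefSeq annotation of GRCm38 (mm10), 21000 genes with a curated mRNA, with pysam 0.24.0, pandas 2.3.3, numpy 2.4.6, scipy 1.17.1 and matplotlib 3.10.9 under Python 3.11.15. A promoter summit lay within 1 kb of a TSS, and a gene body ran from the first to the last base of the RefSeq gene. Genes of like length were no more than 1.5 times longer or shorter. Motifs were matched exactly, on both strands, within 100 bp. The genes named by rule were the 3 CIDE genes, the lipid droplet and regulator lists, the genes with the TSS nearest to a CIDE summit, and the 5 densest gene bodies of like length. Cell type markers, and host and lncRNA genes at the summits, are named too. The compact genes of the closing section were named after their values were seen. Members and lists were chosen with earlier results of these data known. The counting was tested on simulated positions. Alternatives changed the score minimum, the windows, the transcripts and the merging of summits. 95% Wilson intervals cover counting error only.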

Additional observations from a re-analysis of the deposited data

How the results depend on the processing

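Of 73 alternatives, 47 were labelled as leaving a value within its limits and 26 as moving it. The limits are not stated here, and the 47 include values that changed. With a window of 25 kb the Cidea locus count was 15 instead of 21 and was labelled as unmoved. Some of the 47 could not have moved. All CIDE summits lay farther apart than the merging distance, so merging could not change their counts. A score minimum could not lower the 0 body and 0 promoter summits of Cideb. The 47 is therefore no measure of stability. With a score of at least 5, 12 summits remained at Cidea, 5 of them in the body, 2 at Cideb and 6 at Cidec, with 1 in the body. With a score of at least 10 the counts were 5 at Cidea, with 1 in the body, 0 at Cideb and 2 at Cidec, with 1 in the body. Over all summits the median score was 5.0 and the upper quartile 9.39, so these minima also remove much of the whole list. The locus count of Cidea stayed above that of 98.4% and 96.9% of genes, that of Cideb went from 80.5% to 59.1% and 0.0%, and that of Cidec went to 76.0% at a score of 10. A window of 25 kb left 7 at Cidec, and one of 100 kb gave 11 at Cideb. Summits with the gene's own TSS nearest numbered 2 at Cidec and 0 at Cideb. A promoter window of 5 kb gave 5 summits at Cidea, 3 at Cideb and 2 at Cidec, and the 3 at Cideb have the TSS of Ltb4r2 nearest. The narrower promoter windows lie inside that of 1 kb, which held 0 summits at Cideb, so their 0 there was fixed in advance. Regulator genes with a promoter summit fell to 60% at a score of 10. Motif windows of 50 and 250 bp gave 7.5% and 40% for the nuclear receptor half-site (all summits 8.2% and 30.3%) and 2.5% and 25% for the EBF pattern (8.1% and 29.6%). The side of the list changed with the window for the nuclear receptor and ERR half-sites (at 50 bp below the list, the ERR form with 0.0% against 0.842%), for C/EBP (at 50 bp above it, 7.5% against 5.77%), for the E-box (at 50 bp above it, 2.5% against 2.45%), and for the NFI half-site and the loose DR1 (at 250 bp above it, 27.5% against 22.8% and 2.5% against 1.18%). The AP-1 share was 10% and 22.5%, against 3.43% and 12.8% of all summits. No paired analysis was possible because no library has a value of its own, which also kept single replicates from being left out. Depth is unknown, so how many weaker sites were missed cannot be given.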

Other observations

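Compact genes were a minority of the genes with as many body summits as Cidea. Of the 200 other genes with at least 10 summits in the body, 16 were no longer than Cidea, and they are named here after their values were seen. The genes of all kinds no longer than Cidea were not counted, so the share of them with at least 10 is not given. Fasn and Scd1 make and desaturate fatty acids. Nr4a1 and Rarg encode nuclear receptors, Zbtb7a and Zbtb7b zinc finger factors, and Kdm6b a histone demethylase. The rest were Adssl1, Dnajb12, Flg2, Gpr146, Mknk2, Rapgef3, Rexo1, Scamp4 and Tns2.

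Among short genes of a length like that of Cideb, the 5 densest were Irf7 with 4 body summits, Igfals with 5, Acadvl with 6, Ucp2 with 7 and Adat3 with 5. Acadvl encodes a mitochondrial enzyme of fatty acid oxidation and Ucp2 a relative of Ucp1.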
